A study of Mus musculus with 5 samples.

Results

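Shared sites of ZHX1 and hnRNPA1 that had no hnRNPA1 peak in Zhx1-KO cells were examined at the CP (cardiac progenitor) stage. They were selected on peak position: a hnRNPA1 peak of 46C-Ctrl cells that overlapped a ZHX1 peak of the same cells by at least 1 bp and overlapped no hnRNPA1 peak of Zhx1-KO cells. The rule gave 487 sites among 14662 control hnRNPA1 peaks, or 3.32% of that list. Both overlaps were chosen by the rule, so their presence and absence are not findings. The 3 peak lists together held 89451 peaks, of which 23244 were ZHX1 peaks of 46C-Ctrl and 51545 were hnRNPA1 peaks of Zhx1-KO.

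In ChIP-seq, fixed chromatin is sheared and the fragments bound by a protein are pulled down and sequenced, and a peak marks where their reads gather. ZHX1 is a nuclear protein with zinc fingers and homeodomains that is known as a partner of the A subunit of NF-Y, the factor of the CCAAT box. hnRNPA1 is an abundant nuclear RNA-binding protein, best known for its role in the choice of splice sites, and its preferred RNA motif reads UAGGG, or TAGGG in DNA letters. Cardiac progenitors are mesodermal cells committed to the heart that have not yet assembled contractile fibres.

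All cells were derived from 46C, a mouse embryonic stem cell line, by differentiation to the CP stage. 46C-Ctrl carried an intact Zhx1 gene, whereas Zhx1-KO had been edited with CRISPR/Cas9 guides at both ends of that gene. ZHX1 and hnRNPA1 were each immunoprecipitated from 46C-Ctrl and hnRNPA1 also from Zhx1-KO, with 1 library per group, and the inputs of both lines were not used here. No replicate error could therefore be given and no difference was tested, and a difference between the cells and a difference between the libraries cannot be told apart. ZHX1 ChIP in Zhx1-KO was not analysed here, so the lists gave no check of the knockout, and CP marker levels cannot be read from peak positions. Depth is unknown, since the lists give positions without read counts. Wilson 95% intervals of shares and order-statistic 95% intervals of medians cover counting error only.

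Overlap with ZHX1 was found for 604 (4.12%) of the 14662 control hnRNPA1 peaks. The 487 sites were 80.6% of these 604 (interval 77.3 to 83.6), and the other 117 also overlapped a knockout peak. Absence of a knockout peak was the usual state, since 14016 control hnRNPA1 peaks (95.6%) overlapped none. Another 529 peaks overlapped a knockout peak and no ZHX1 peak, and 13529 overlapped neither. The 117 shared peaks that were kept and the 13529 peaks with neither partner are the groups set beside the sites below.

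Sequences are shown for promoter sites in single-copy DNA at genes with known roles, because these can be tied to a gene by position. They do not stand for all single-copy sites, of which 51% lay in introns and 37% between genes, promoters included. A site was called a promoter site when its centre lay within 2 kb of the transcription start site (TSS) of any transcript of a protein-coding gene. The copy number of a site is the median number of times its 32-base words occur in the genome. Of 9 promoter sites with a copy number below 2 at genes of the lists described further on, 8 are printed. Each is the stretch common to the hnRNPA1 and the ZHX1 peak, up to 300 bases, read from the RefSeq GRCm38 genome on the plus strand. Capitals mark TAGGG or CCAAT on either strand (CCCTA and ATTGG are their reverse complements), and the coordinates are those of the printed stretch.
Foxa2 (chr2:148044384-148044606): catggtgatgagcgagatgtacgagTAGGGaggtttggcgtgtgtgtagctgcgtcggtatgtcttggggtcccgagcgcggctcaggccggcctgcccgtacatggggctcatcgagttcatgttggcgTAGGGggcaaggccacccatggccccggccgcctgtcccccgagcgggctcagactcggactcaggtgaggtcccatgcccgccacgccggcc
Cux2 (chr5:121926181-121926480): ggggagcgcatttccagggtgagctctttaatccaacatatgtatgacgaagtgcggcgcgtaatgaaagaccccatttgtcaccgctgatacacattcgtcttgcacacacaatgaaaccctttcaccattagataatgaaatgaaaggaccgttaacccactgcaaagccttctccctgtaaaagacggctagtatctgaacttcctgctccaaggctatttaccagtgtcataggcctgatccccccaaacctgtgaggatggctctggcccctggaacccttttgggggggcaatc
Bcl11b (chr12:108005357-108005579): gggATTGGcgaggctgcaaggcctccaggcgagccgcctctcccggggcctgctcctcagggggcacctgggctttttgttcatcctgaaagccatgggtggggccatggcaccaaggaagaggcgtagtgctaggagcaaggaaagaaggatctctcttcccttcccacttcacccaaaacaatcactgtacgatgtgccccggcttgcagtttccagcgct
Hoxd3 (chr2:74732646-74732696): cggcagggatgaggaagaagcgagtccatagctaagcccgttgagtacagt
Cacna2d2 (chr9:107507862-107508089): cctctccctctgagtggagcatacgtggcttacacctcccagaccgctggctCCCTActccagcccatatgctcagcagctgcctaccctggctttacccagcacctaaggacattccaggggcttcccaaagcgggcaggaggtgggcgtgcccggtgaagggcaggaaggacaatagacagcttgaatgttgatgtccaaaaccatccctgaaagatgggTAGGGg
Ehmt2 (chr17:34911247-34911451): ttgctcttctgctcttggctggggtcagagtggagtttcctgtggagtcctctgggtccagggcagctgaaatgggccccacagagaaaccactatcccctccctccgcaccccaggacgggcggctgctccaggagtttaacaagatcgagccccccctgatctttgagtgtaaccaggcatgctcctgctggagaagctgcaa
Uhrf1 (chr17:56319845-56319944): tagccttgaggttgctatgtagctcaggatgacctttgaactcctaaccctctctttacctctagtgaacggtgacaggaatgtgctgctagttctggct
Chd3 (chr11:69352622-69352705): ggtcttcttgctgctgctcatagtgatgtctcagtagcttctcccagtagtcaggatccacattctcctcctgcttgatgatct

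These 8 stretches ranged from 51 bases at Hoxd3 to 300 bases at Cux2, where the common stretch was longer than the part printed. The Foxa2 stretch had the highest GC content, 67.3%, with 20 CpG and 2 TAGGG. The Cacna2d2 stretch also held 2 TAGGG, and the Bcl11b stretch held 1 CCAAT. The other 5 held neither motif. A match is a description of the letters and not a measured binding site.

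Foxa2, a forkhead factor of endoderm and of the axial midline, carried a site in its coding sequence (chr2:148044384-148044606), 0.969 kb from a TSS. The ZHX1 peak was 426 bp wide and covered all 223 bp of the hnRNPA1 peak. The nearest knockout peak lay 23.1 kb away, and 6 knockout peaks carried the name Foxa2. Thus the knockout list was not empty around the gene, and the absence of a knockout peak at the site itself was set by the rule.

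Bcl11b, a zinc finger factor of T cell and neuronal development, had a site of 223 bp (chr12:108005357-108005579) at 1.87 kb from its TSS, again covered in full by the ZHX1 peak. A knockout peak lay 2.27 kb from it, and 11 knockout peaks were named Bcl11b. The knockout peak near the site was itself within 2 kb of a Bcl11b TSS. The Cux2 site (chr5:121926160-121926493) was 334 bp wide, shared 326 bp with the ZHX1 peak and lay in an intron of this homeobox gene of upper-layer cortical neurons. Its nearest knockout peak was 3.70 kb away. At Hoxd3, a homeobox gene of anterior-posterior patterning, the site (chr2:74732472-74732696) lay 0.329 kb from a TSS but shared only 51 bp with the ZHX1 peak. Knockout peaks also lay within 2 kb of other annotated TSS of Cux2 and Hoxd3. The 4 promoter sites of developmental transcription factors thus differed in how fully both proteins' peaks coincided.

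Chromatin genes had 3 promoter sites in single-copy sequence. Each lay inside its gene near an annotated TSS, while other annotated TSS of the same gene lay more than 10 kb away. Ehmt2 encodes a histone H3 lysine methyltransferase, and its site (chr17:34911247-34911565) lay in coding sequence 0.431 kb from a TSS, with the nearest knockout peak at 12.7 kb. That knockout peak covered other annotated TSS of Ehmt2, so the knockout list was not without a peak at an Ehmt2 start. Chd3, a remodeller of the NuRD complex, had a site in coding sequence (chr11:69352483-69352705) with 84 bp shared with ZHX1 and a knockout peak at 11.6 kb. Uhrf1 is required for maintenance of DNA methylation, and its intronic site (chr17:56319845-56320128) was 284 bp wide, with a knockout peak only 0.176 kb beyond its edge. Uhrf1 thus stood close to the boundary of the rule, whereas Ehmt2 and Chd3 did not.

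**Figure D1:**
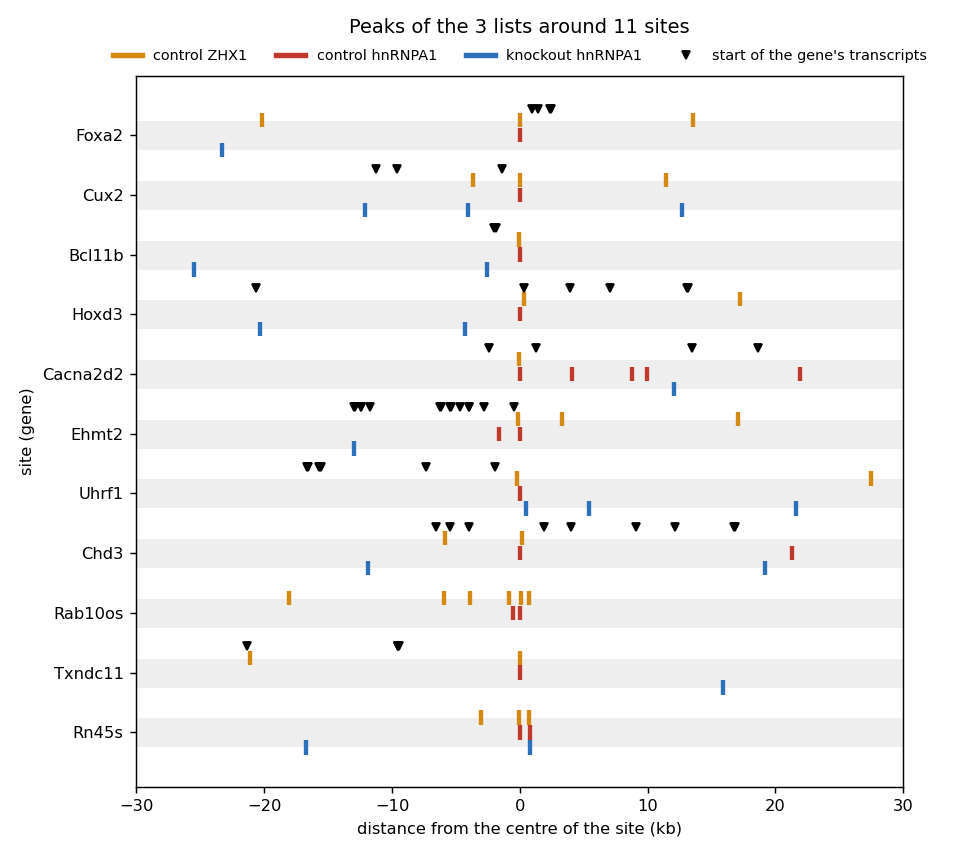
Peaks of the 3 lists within 30 kb of the centre of the 11 sites whose sequences are printed; the horizontal axis is distance from the site's centre in kb, coloured ticks are peak centres (control ZHX1, control hnRNPA1, knockout hnRNPA1) and triangles are transcript starts of the named protein-coding gene. Measured between peak edges, the nearest knockout peak is 0.176 kb from the Uhrf1 site and 23.1 kb from the Foxa2 site, and the Rab10os row has 0 knockout ticks.

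The deposited gene name often was not the gene a site lay in. The Cux2 site was named Pheta1, the Hoxd3 site Mir10b, the Ehmt2 site Slc44a4, the Uhrf1 site Kdm4b, the Chd3 site Rnf227 and the Cacna2d2 site Tmem115. Cacna2d2 encodes an auxiliary subunit of voltage-gated calcium channels, and its intronic site (chr9:107507745-107508262) was one of the wide ones at 518 bp, with 228 bp under the ZHX1 peak. Scaf4, a regulator of transcription termination, held the ninth promoter site of a listed gene, named Sod1 in the list (chr16:90229450-90229889, coding sequence, 440 bp wide). Of the 487 sites, 483 had a deposited name, with 417 different names among them, and 476 shared the name with their ZHX1 peak.

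By deposited name, few sites fell on the gene lists. Developmental transcription factors (74 genes) had 2 sites, Foxa2 and Bcl11b, out of 82 control hnRNPA1 peaks with a name on that list (2.44%). Cardiac progenitor regulators (36 genes) had 1 site out of 24 peaks (4.17%), at Mef2c. Contractile and calcium handling genes (45 genes) had 2 of 40 (5%), named Ttn and Myom2. Chromatin regulators (79 genes) had 2 of 59 (3.39%), named Kdm4b and Smarca5. The Wnt pathway (54 genes) had 1 of 51 (1.96%), at Ror1, and axon guidance genes (59 genes) had 1 of 75 (1.33%), at Unc5d. TGF-beta, BMP and Nodal genes (45 genes, 47 peaks), hnRNP and splicing factors (52 genes, 44 peaks) and the Zhx family with NF-Y (6 genes, 5 peaks) had 0 sites. These shares rest on 0 to 2 sites each and stand beside 3.32% of all control hnRNPA1 peaks, so no list can be set apart from the background.

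Mef2c, a MADS-box factor of the second heart field, also belonged to the genes the study gave as examples. For Mef2c, Src and Epas1 the paper reported weaker hnRNPA1 ChIP-seq signal at promoters after loss of Zhx1. Its ChIP of single promoters gave this for Mef2c and Src, not Epas1. Of 9 control hnRNPA1 peaks named for these 3 genes, 1 was a site, named Mef2c. That site (chr13:83197517-83197780, 264 bp) lay between genes, 306 kb from the nearest TSS of Mef2c and so not at its promoter. With ZHX1 it shared 225 bp. Its sequence had a copy number of 97, and the nearest knockout peak, 36.2 kb away, carried the name Mef2c, as did 5 knockout peaks in all. The site named Ttn, after the giant sarcomere protein, lay in an intron of the neighbour Ccdc141 (chr2:77053246-77053468), and only 9 bp of it were shared with ZHX1. The site named Myom2, after a protein of the sarcomeric M-band, lay 401 kb from the Myom2 TSS (chr8:15519819-15520068, copy number 11) and stood at row 13 of the control hnRNPA1 list. The site named Smarca5, after a chromatin remodelling ATPase, lay in an intron of Frem3 (chr8:80684666-80685009), 26 kb from the nearest Smarca5 TSS, with the nearest knockout peak at 54.4 kb. Ror1, a receptor for Wnt5a, named a site 62 kb from the nearest coding TSS with a copy number of 12274.5. Unc5d, a netrin receptor, named an intronic site with a copy number of 3940 and a knockout peak at 0.524 kb. Of the 9 sites named for listed genes, none but Foxa2 and Bcl11b lay within 2 kb of a TSS of the gene in its name.

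Most sites lay in multi-copy sequence. A copy number of 2 or more was found at 295 of 487 sites (60.6%, interval 56.2 to 64.8), at 98 of 117 kept peaks (83.8%, 76.0 to 89.4), and at 21% (20.4 to 21.7) of peaks with neither partner. Peaks with a knockout peak and no ZHX1 peak had 66.4% (62.2 to 70.2). The sites thus lay between the kept peaks and the peaks with neither, and these intervals did not overlap. Copy numbers of 100 or more occurred at 105 sites (21.6%), against 20.5% of kept peaks, 35.2% of peaks with a knockout peak alone and 10.8% of peaks with neither. Among multi-copy peaks the median copy number was 20 at the sites (interval 13 to 35) and 129.5 for those with neither (94 to 198.5). At least 50% of the bases were soft-masked in the genome file, which marks repeats, at 228 sites (46.8%), 58.1% of kept peaks, 56.5% of peaks with a knockout peak alone and 27.3% of peaks with neither. Reads without a unique position had been removed by the authors, and what this removal does to the calls in such sequence was not tested.

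**Figure D2:**
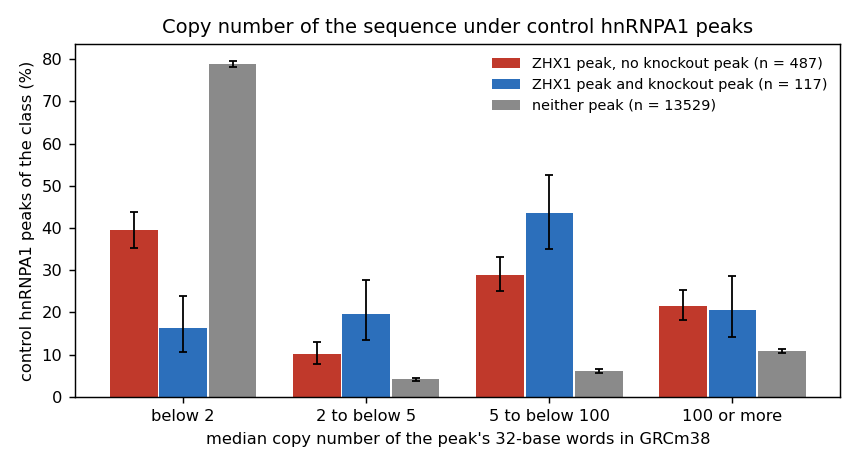
Bars give the percent of control hnRNPA1 peaks in each class of copy number (horizontal axis, median over the peak's 32-base words) for the 487 sites, the 117 shared peaks with a knockout peak and the 13529 peaks with neither; error bars are Wilson 95% intervals. Copy numbers of 2 or more make up 60.6% of sites and 21% of peaks with neither.

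Sites also shared sequence with each other. With at least 50 words of 32 bases in common taken as a link, 82 sites fell into 23 groups and 405 stood alone. The largest group had 8 sites on 6 chromosomes, named 1700063A18Rik, 9630001P10Rik, Cypt14, Gm4788, Olfr441, Sec16b, Slitrk5 and Snrpn, with copy numbers of 4769 to 9659. The next had 7 sites on 7 chromosomes, among them Timp3, Rfx3 and Pappa, with copy numbers of 3109 to 11172. The names of such sites are those of neighbouring genes, while the sequence recurs at many places. Sites of 1 group are therefore not independent observations.

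The sites were unevenly spread over chromosomes. Chromosome 14 held 61 sites (12.5% of all), which were 7.70% of its 792 control hnRNPA1 peaks (interval 6.04 to 9.77), and 55 of the 61 were multi-copy. Chromosome 8 held 41 sites (5.18%, 3.84 to 6.95), chromosome 12 held 37 (4.81%, 3.51 to 6.55) and chromosome 1 held 45 (4.53%, 3.40 to 6.01). The X chromosome held 12 (7.32%, 4.23 to 12.4) and the Y chromosome 2 (6.90%, 1.91 to 22.0), all multi-copy. Of all 164 control hnRNPA1 peaks on the X chromosome, 160 were multi-copy. Chromosome 19 held 4 sites (1.05%, 0.410 to 2.67). Chromosome 11, which had the largest number of control hnRNPA1 peaks (1295), held 40 sites (3.09%, 2.28 to 4.18), of which 34 had a copy number below 2. On chromosome 14, 6 sites had a copy number below 2. The whole list showed the same contrast, with 1176 of 1295 control hnRNPA1 peaks below 2 copies on chromosome 11 and 422 of 792 on chromosome 14. Below 2 copies, chromosome 11 nevertheless held 17.7% of sites (13.0 to 23.7), above the 10.6% of all such control hnRNPA1 peaks. It held 12.9% (8.77 to 18.6) of such peaks with a knockout peak alone and 5.26% of the 19 kept ones.

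**Figure D3:**
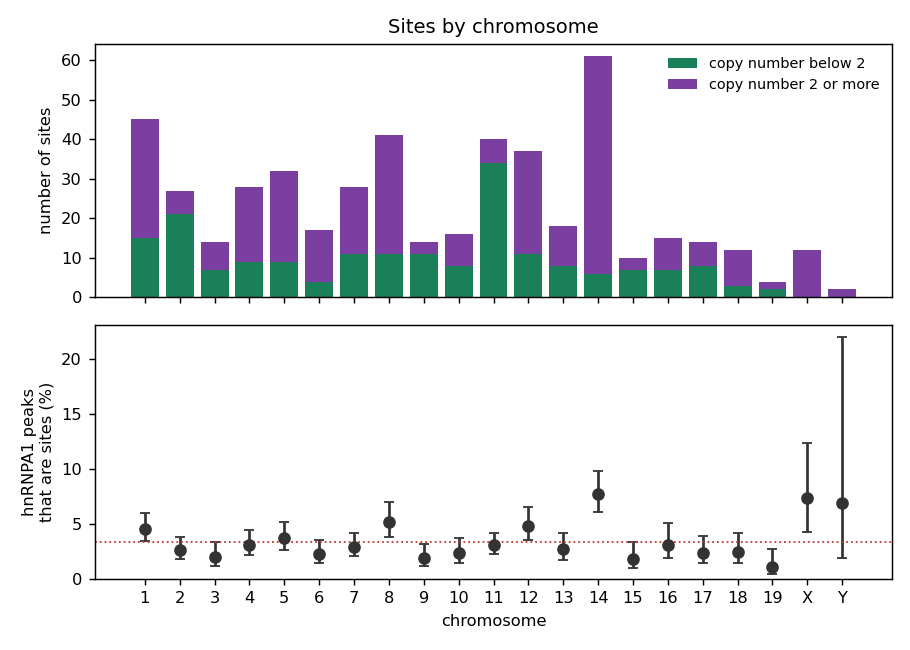
Upper panel, number of sites per chromosome, split by copy number below 2 and 2 or more; lower panel, percent of each chromosome's control hnRNPA1 peaks that are sites, with Wilson 95% intervals and a dotted line at the share over all chromosomes. Chromosome 14 has the most sites (61) and chromosome 11 the most with a copy number below 2 (34).

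On chromosome 14, 45 sites stood in a single stretch of 5.16 Mb (chr14:3124527-8286862) when sites within 1 Mb of the next were joined. All 45 were multi-copy, and their names were mostly predicted genes such as Gm5796, Gm3636, LOC100861615 and 2610042L04Rik. The same stretch held 214 control hnRNPA1 peaks, 10 kept peaks, 249 ZHX1 peaks and 460 knockout peaks. A cluster on chromosome 8 (chr8:19910638-21019769) held 17 sites among 47 control hnRNPA1 peaks, and 16 of the 17 were multi-copy. Their names included 6820431F20Rik, Gm21119, Gm15319 and Defa21. Defa21 belongs to the alpha-defensins, antimicrobial peptides of the gut.

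Other clusters fell on gene families. On chromosome 4, 12 sites lay within 2.10 Mb (chr4:145653770-147755587) around KRAB zinc finger genes including Zfp600, Zfp980, Zfp981, Zfp991 and Zfp992. The same stretch held 44 control hnRNPA1 peaks and 193 knockout peaks. On chromosome 1, 8 sites of 28 control hnRNPA1 peaks lay within 0.610 Mb (chr1:84994010-85604506) next to Sp110 and Slc16a14. On chromosome 5, 7 sites lay among the Speer4 genes (chr5:14982226-15672328), where the 19 control hnRNPA1, 18 ZHX1 and 16 knockout peaks were about equal in number. On chromosome 7, 7 sites of 49 control hnRNPA1 peaks lay among vomeronasal receptor genes (chr7:6082903-9360473), and 6 of the 7 sites were multi-copy. In contrast, the 5 sites at chr11:116050201-117912372, named Sept9, Sphk1, Tha1 and Unk, all had a copy number below 2. They stood among 28 control hnRNPA1 peaks. All these stretches were drawn around sites, so their shares of sites cannot be set against the 3.32% of all control hnRNPA1 peaks.

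Some names recurred: 2610042L04Rik named 7 sites out of 20 control hnRNPA1 peaks of that name, 6820431F20Rik 6 of 16 and LOC100861615 5 of 26. The names 5730507C01Rik, Gm21119, Gm3636 and Rn4.5s stood on 4 sites each, out of 30, 21, 19 and 8 control hnRNPA1 peaks. Knockout peaks carried each of these names too, 39 of them 2610042L04Rik, 29 6820431F20Rik, 42 LOC100861615 and 67 5730507C01Rik. When sites within 100 kb of the next were joined, 15 stretches with 3 or more sites held 60 sites.

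Families of receptors and zinc finger proteins were counted by symbol. Zinc finger genes named 11 sites (2.26%, interval 1.27 to 4.0, against 1.44% of all control hnRNPA1 peaks). Vomeronasal receptors, which detect pheromones, named 10 sites (2.05%, 1.12 to 3.74, against 1.02%), and olfactory receptors named 8 (1.64%, 0.835 to 3.21, against 1.10%). MicroRNA genes named 12 (2.46%, 1.42 to 4.26, against 3.56%). Each of these intervals except that of the vomeronasal receptors contained the value over all peaks. Vomeronasal names were not particular to the sites, since they made up 7.69% of kept peaks and 2.08% of peaks with a knockout peak alone, and among multi-copy peaks 2.71% of sites against 3.04% of all. Predicted genes, with names of the Gm or Rik kind, named 161 sites (33.1%, 29.0 to 37.4, against 18.9%), and 134 of these were multi-copy. Such names also made up 39.3% of kept peaks. Of the zinc finger sites, 8 of 11 were multi-copy, and the site in Zfp810 (chr9:22306216-22306454, 0.633 kb from a TSS) was the only one at a promoter.

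Ribosomal RNA genes stood out among the individual sites and are described because their values were seen first, not by the rule for naming genes. At Rn45s, the 45S precursor of ribosomal RNA, a site of 420 bp (chr17:39847506-39847925) lay wholly inside a ZHX1 peak of 526 bp. A second control hnRNPA1 peak next to it (chr17:39848238-39848727) also had a ZHX1 peak and did overlap a knockout peak. One shared peak was thus a site and its neighbour was kept, and the gap from the site to that knockout peak was 0.334 kb. Both had a copy number of 1 in the assembly, although ribosomal RNA genes are known to be tandemly repeated in the genome. All 389 words of the site matched the annotated 18S and 45S stretch of chromosome 17. The site Gm8579 on chromosome 6 (chr6:3201339-3201582), at row 10 of the list, shared 90 of its 213 words with the same stretch.

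In the array of 5S ribosomal RNA genes on chromosome 8, 3 sites lay within 17.5 kb (chr8:123544050-123561510), named Gm26391, Gm22109 and Gm23284, with copy numbers of 49 to 50. The stretch held no other control hnRNPA1 peak, 8 ZHX1 peaks and 3 knockout peaks. These 3 sites shared no 32-base word with a RefSeq 5S gene. At Rn4.5s, a small noncoding RNA gene array of rodents on chromosome 6, 4 sites lay within 31.4 kb (chr6:47737284-47768652), with copy numbers of 16 to 18 and 8 knockout peaks in the stretch.

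The next sequences are shown for 3 sites that lead the list or carry the motif most often, which were picked after their values were seen. Txndc11 is the first row of both control lists, Rn45s is the site just described (its central 300 bases), and Rab10os had the most TAGGG of all sites. Conventions are as above.
Txndc11 (chr16:11144007-11144229): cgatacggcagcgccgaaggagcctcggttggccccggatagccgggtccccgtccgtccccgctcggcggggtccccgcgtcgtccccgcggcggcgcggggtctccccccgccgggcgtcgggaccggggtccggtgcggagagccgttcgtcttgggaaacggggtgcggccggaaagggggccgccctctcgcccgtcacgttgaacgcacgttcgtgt
Rn45s (chr17:39847566-39847865): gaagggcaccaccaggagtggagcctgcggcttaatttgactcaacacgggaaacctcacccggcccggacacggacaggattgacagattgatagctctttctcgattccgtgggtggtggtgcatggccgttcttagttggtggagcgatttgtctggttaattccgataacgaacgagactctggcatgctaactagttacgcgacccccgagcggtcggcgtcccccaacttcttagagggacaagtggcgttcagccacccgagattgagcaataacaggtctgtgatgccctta
Rab10os (chr12:3018624-3018884): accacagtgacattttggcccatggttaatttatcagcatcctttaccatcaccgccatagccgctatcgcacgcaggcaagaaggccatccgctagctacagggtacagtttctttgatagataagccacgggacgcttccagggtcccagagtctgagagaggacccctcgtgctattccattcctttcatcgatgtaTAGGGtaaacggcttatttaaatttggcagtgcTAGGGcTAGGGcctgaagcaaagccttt

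The site named Txndc11 (chr16:11144007-11144229) lay in an intron of Zc3h7a, was covered in full by the ZHX1 peak and had a copy number of 3. Its bases had a GC content of 76.2%, the highest of all sites, and 39 CpG. The nearest knockout peak lay 15.7 kb away. The Txndc11 site was not among the 4 control hnRNPA1 peaks that shared a word with the ribosomal RNA sequence searched. That search covered only the RefSeq genes and the stretch chr17:39843013-39848788. Whether the Txndc11 site matches ribosomal RNA sequence outside these was not tested, so the intron of Zc3h7a gives its position only. The site named Rab10os (chr12:3018463-3018884) held 4 TAGGG over its whole width, 3 of them in the printed stretch, and the nearest knockout peak lay 73.2 kb away.

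The order of rows in the lists is not positional and is not documented in the sources used here. Median peak widths in 10 equal blocks of rows of the control hnRNPA1 list were between 242 and 280 bp and showed no steady trend. Rows 1 to 1466 held 128 sites, which were 8.73% of those peaks (interval 7.39 to 10.3) and 26.3% of all sites (22.6 to 30.4). The same rows held 38.5% of kept peaks (30.1 to 47.5), 19.1% of peaks with a knockout peak alone (16 to 22.7) and 8.81% of peaks with neither. The share in the first rows was thus above that of peaks with neither in all 3 overlapping groups, and highest among kept peaks. The last of the 10 blocks held 45 (3.07%, 2.3 to 4.08). Among the first 100 rows, 34 were sites and 12 were kept peaks, while 42 had neither partner and 12 a knockout peak alone. Of these 34 sites, 21 had their ZHX1 partner within the first 100 rows of the ZHX1 list as well. Across the 487 sites the row numbers in both lists had a Spearman correlation of 0.35, which was 0.033 among the 192 sites with a copy number below 2 and 0.38 among the 295 others. These points share sequence families and cannot be treated as independent.

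**Figure D4:**
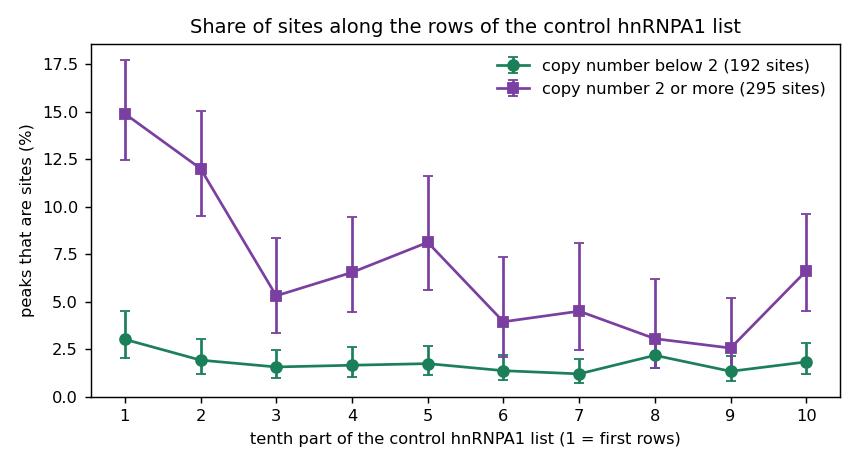
Percent of control hnRNPA1 peaks that are sites (vertical axis) in each of 10 equal blocks of the list's rows (horizontal axis, 1 = first rows), for peaks with a copy number below 2 and of 2 or more; error bars are Wilson 95% intervals. Among peaks of 2 or more copies the share is 14.9% in block 1 and 2.56% in block 9.

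The multi-copy peaks carried most of this order. Their share of sites was 14.9% (12.5 to 17.7) in rows 1 to 1466 and 6.63% (4.53 to 9.61) in the last 1466 rows. Among peaks with a copy number below 2 the same shares were 3.02% (2.02 to 4.49) and 1.84% (1.19 to 2.82), with overlapping intervals. Rows 1 to 1466 still held 12% of the sites below 2 copies (8.12 to 17.3), against 6.69% (6.23 to 7.18) of such peaks with neither. They also held 8.43% (5.17 to 13.4) of such peaks with a knockout peak alone and 42.1% of the 19 kept peaks. The earliest single-copy sites were named Dtnbp1 (row 3, in an intron of Jarid2, a partner of Polycomb proteins, 55.8 kb from a knockout peak), Cr2 (row 4) and Brox (row 8, in an intron of Aida). The ZHX1 partner stood at row 45, row 12 and row 8 of its own list.

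The sites were moderately wide. Their median width was 279 bp (interval 271 to 287, range 223 to 770), that of kept peaks was 278 bp and that of peaks with neither was 255 bp (254 to 257). The smallest width in the list, 223 bp, was reached by 101 sites (20.7%), 14.5% of kept peaks and 34.7% of peaks with neither. Widths of 400 bp or more were found at 68 sites (14%), 20.5% of kept peaks and 8.20% of peaks with neither. A wider peak has more room to meet a ZHX1 peak, so width is not independent of the rule. The widest site was 770 bp (chr1:84994010-84994779), named Slc16a14 for a transporter of the monocarboxylate family, copy number 6, and its ZHX1 peak of 1048 bp covered it entirely. Gm5796 (723 bp), Olfr412 (710 bp), Gm3317 (696 bp) and Vmn2r89 (671 bp) followed. Then came 1110002J07Rik (657 bp), Lmbr1 (612 bp), E330021D16Rik (581 bp), Taf1b (576 bp) and Vmn2r40 (548 bp). Of these 10, Olfr412, Vmn2r89 and Taf1b had a copy number of 1.

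The overlap with ZHX1 was substantial at most sites. A median of 218 bp was shared (interval 208 to 223), or 73.5% of the hnRNPA1 peak, and 77 sites lay entirely inside the ZHX1 peak. Peak centres were a median of 77.5 bp apart (67.0 to 93.5) at the sites and 45 bp (32 to 57.5) at kept peaks. The longest overlaps were 770 bp at Slc16a14, 549 bp at E330021D16Rik, 492 bp at Gm15319, 474 bp at 4930572O03Rik and 464 bp at 4732416N19Rik. The shortest were 1 bp at Mc2r and Tsnax, 3 bp at Siah3, 5 bp at 5730507C01Rik and 6 bp at Zscan4c. Just outside the rule, the hnRNPA1 peaks named Magea4 and Prkar2b touched a ZHX1 peak without overlap, and those named Crxos and Kcna7 stopped 3 bp short of one.

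Most sites had a knockout peak in their neighbourhood. The gap to the nearest knockout peak was a median of 7.0 kb (interval 5.79 to 8.26, range 0.015 to 661), against 13.9 kb (13.4 to 14.2) for peaks with neither. A knockout peak lay within 1 kb of 58 sites (11.9%, against 6.10%), within 10 kb of 287 (58.9%, against 40.5%) and within 100 kb of 478 (98.2%, against 97.5%). Copy number moved with this distance. Sites with a copy number below 2 had a median gap of 11.9 kb (9.72 to 16.9) against 15.0 kb (14.6 to 15.4) for such peaks with neither. Multi-copy sites had 5.0 kb (3.90 to 5.83) against 8.67 kb (7.89 to 9.50). The share of the gap that comes with copy number was not tested beyond this division.

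**Figure D5:**
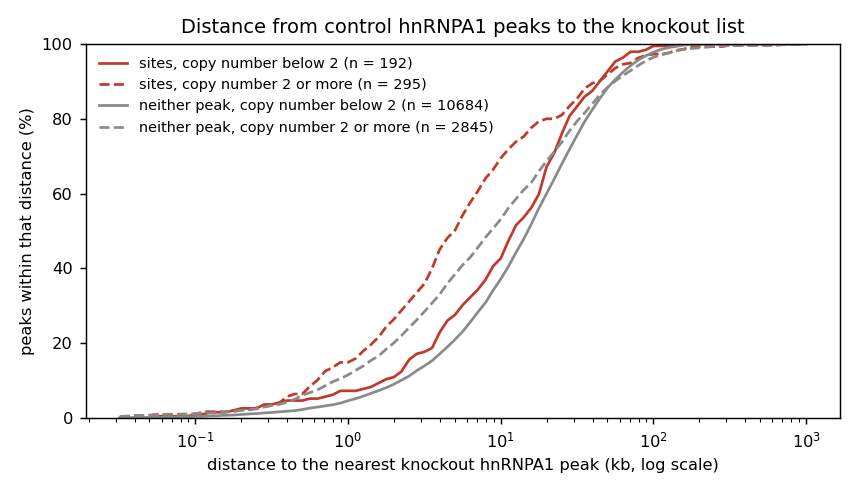
Cumulative percent of control hnRNPA1 peaks (vertical axis) with a knockout hnRNPA1 peak within the distance on the horizontal axis (kb, log scale), for sites and for peaks with neither partner, each divided by copy number below 2 and 2 or more. The medians are 11.9 and 5.0 kb for sites and 15.0 and 8.67 kb for peaks with neither.

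At the boundary of the rule, the sites closest to a knockout peak were named Prkd1 (15 bp), Mup9 (36 bp), Tmem163 (54 bp), 7530416G11Rik (55 bp) and Gm13944 (100 bp). The shared peaks just excluded overlapped a knockout peak by 25 bp at Zic1, 35 bp at Rngtt, 50 bp at Ptgs1, 52 bp at Habp2 and 61 bp at Ifi204. The ZHX1 peak itself reached into a knockout peak at 4 sites, named Tmem163, Prkd1, 7530416G11Rik and Gramd4. The most isolated sites were named G530011O06Rik on the Y chromosome (661 kb), Gm33340 (285 kb), Slx on the X chromosome (176 kb), Akap13 (169 kb) and Gm28729 (151 kb), and all 5 were multi-copy. A knockout peak elsewhere carried the name of 444 of the 483 named sites (91.9%, interval 89.2 to 94.0), against 87.3% of named peaks with neither. Below 2 copies the shares were 85.3% (79.5 to 89.6) and 85.9%, so no such difference was seen there. Of the 417 names, 378 also occurred in the knockout list and 39 did not, so loss of a site in the list seldom meant loss of the name.

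Promoter sites numbered 54 (11.1%, interval 8.60 to 14.2), against 9.88% of peaks with neither and 6.84% of kept peaks. The division by copy number separated them: 38 of 192 sites with a copy number below 2 were at promoters (19.8%, 14.8 to 26), and 16 of 295 multi-copy sites (5.42%, 3.37 to 8.63). Peaks with neither partner and a copy number below 2 had 11.5% at promoters (interval 10.9 to 12.2), below the interval of the sites. Peaks that overlapped a knockout peak but no ZHX1 peak had 20.2% in that copy class (15 to 26.7), so the sites were not alone in this share. Over all sites, 251 lay between genes (51.5%), 195 in introns (40.0%), 17 in coding sequence, 15 in noncoding exons and 9 in untranslated regions.

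Single-copy promoter sites covered genes of varied function. The widest was at Olfr412, an olfactory receptor (710 bp, 1.96 kb from the TSS, knockout peak at 20.1 kb), followed by Cacna2d2 and Scaf4. The site named Vasn lay 0.183 kb from a TSS of Coro7, whose product acts at the Golgi, with a knockout peak at 1.37 kb. The sites of Hjurp, the chaperone that deposits the centromeric histone (chr1:88272684-88272980, named 6430706D22Rik), and of Patz1, a zinc finger repressor (chr11:3294532-3294817), had their nearest knockout peaks at 21.3 and 19.9 kb, and no knockout peak carried either deposited name. Tbca, a tubulin folding cofactor, and Fis1, a mitochondrial fission protein, had promoter sites with knockout peaks at 48.8 and 37.7 kb. Gramd4, Pld6, Sept9 and Bahcc1 had promoter sites with a knockout peak within 1 kb, at 0.115, 0.365, 0.528 and 0.832 kb. Among multi-copy promoter sites the widest were named E330021D16Rik (581 bp, copy number 2), 1700049E17Rik1 (530 bp, copy number 9) and Pisd-ps1 (488 bp, in coding sequence of Sfi1).

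The hnRNPA1 motif was about as frequent at the sites as in the list as a whole, and that of NF-Y was not more frequent. In the central 223 bp, TAGGG on either strand occurred at 147 sites (30.2%, interval 26.3 to 34.4) and at 29.5% of all control hnRNPA1 peaks. CCAAT occurred at 132 sites (27.1%, 23.3 to 31.2) and at 30.1% of all peaks. The G-quadruplex motif, with 4 tracts of 3 or more G spaced by 1 to 7 bases, occurred at 17 sites (3.49%, 2.19 to 5.52) and at 3.06%. The 3 motifs were searched separately and can overlap. CCAAT was found at 39 of 192 sites with a copy number below 2 (20.3%, 15.2 to 26.6) against 27.5% (26.7 to 28.4) of such peaks with neither, and at 93 of 295 multi-copy sites (31.5%, 26.5 to 37) against 39.6% (37.8 to 41.4). In both copy classes the share at the sites was lower than in peaks with neither, with intervals that did not overlap and no test run. Other overlapping peaks were alike below 2 copies, with 22.5% (17 to 29.1) for those with a knockout peak alone and 21.1% for the 19 kept peaks. Median GC content was 47.5% (46.9 to 48.0) at the sites and 46.7% over all peaks. Below 2 copies it was 49.4% (48.1 to 50.3) at the sites and 47.1% (47.0 to 47.3) in peaks with neither. Such peaks with a knockout peak alone had 50% and the kept ones 51.5%. Among multi-copy peaks it was 46.2% (44.6 to 47.5) at the sites and 44.4% (44.1 to 44.8) in peaks with neither.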

How the data were processed

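Adapters were cut by the authors with cutadapt 1.18 and reads shorter than 50 bases were discarded. Alignment to GRCm38 (mm10) used Bowtie2 2.3.5.1, after which unmapped, multiply mapped and duplicate reads were removed. BWA 0.7.12-r1039 appears in the submitters' processing notes without a role, and the authors used deepTools 3.3.0 for display of the ChIP-seq signals. The caller and threshold of the peaks, and whether inputs were subtracted, were not given in the sources used here. The deposited lists hold positions, a gene name and a constant strand per peak, from 1 library each, with no score, signal or p-value. The inputs were not used.

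Positions were read as 0-based and are printed 1-based. Copy number was counted over 32-base words, both strands, on the chromosomes and unplaced scaffolds of GRCm38. Annotation was GENCODE M21, and ribosomal RNA sequence was that of the RefSeq genes and of the stretch chr17:39843013-39848788. Named sites were those on the gene lists, the 10 widest, the 5 nearest to and 5 farthest from a knockout peak, the 5 longest and shortest ZHX1 overlaps, the widest promoter sites and clusters. Other genes were chosen after their values were seen. The sites, lists and rules were chosen with earlier results of these data known. The steps were tested on simulated intervals and sequence. Calculations ran in Python 3.11.15 with scipy 1.17.1, pandas 2.3.3 and numpy 2.4.6, words were counted with numba 0.67.0, and plots were drawn with matplotlib 3.10.9.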

Additional observations from a re-analysis of the deposited data

How the results depend on the processing

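Of 67 alternative values, 44 stayed within the interval of the reported value (counts within 1.5 times) and 23 did not. Causes were not tested unless the setting itself changes the quantity. With at least 100 bp of ZHX1 overlap, 67.0% of sites were multi-copy. Requiring no knockout peak within 1 kb left 71.0% of shared peaks as sites, with a median gap of 8.61 kb and 53.4% within 10 kb. With peaks of the smallest width dropped from each list, 317 sites remained, their median width was 298 bp, 69.4% were multi-copy and 5.99% were on chromosome 11. With the 14662 widest knockout peaks alone, 91.2% of shared peaks were sites, the median gap was 29.2 kb, 28.9% had a knockout peak within 10 kb and 73.6% of names recurred in that list. With peaks below 2 copies alone, 192 sites remained, which were 91% of shared peaks, with a median gap of 11.9 kb, 42.7% within 10 kb, 17.7% on chromosome 11, 19.8% at promoters and 85.3% of names in the knockout list (85.9% for peaks with neither partner). In that setting rows 1 to 1466 held 12% of sites, an alternative chosen after seeing the data. A 1 kb window put 5.95% at promoters, a copy number of 5 or more made 50.5% multi-copy, and 41.1% had a knockout peak within 5 kb. Keeping 1 site per 10 kb cluster or leaving out chromosome 11 moved no value out of its interval. No paired analysis was possible because each group had 1 library and no test was run. Depth and threshold are unknown, so a peak that is missing from a list cannot be told apart from one that fell short of the threshold.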
